A study of Mus musculus with 12 samples.

Results

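The 82 genes described here are named for protein subunits of the cytosolic ribosome, though not all of them need encode one. They were taken by symbol, as every Rpl and Rps gene in either deposited count table plus Rpsa, Rplp0, Rplp1 and Rplp2, leaving out Rpl3, Rpl3l, the S6 kinases and names marked as pseudogenes. The rule gave 50 genes of the large subunit and 32 of the small subunit, of 17912 genes in either table, and all 82 were in both tables. RefSeq lists 81 of them as protein coding and Rpl6l as a pseudogene, and they lie on 19 chromosomes. Fau, Rpl36al and Rack1 also encode ribosomal proteins, but their symbols fall outside the rule.

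The study deleted Ddx5, which encodes a DEAD-box RNA helicase that acts in transcription and splicing, in mouse heart muscle, and sequenced RNA of the left ventricle of male mice. There were 3 libraries in each of 4 groups, and all 12 came from mice with floxed Ddx5 alleles. The constitutive knockout (mCKO, DDX5fl/fl MYH6Cre+) was taken at 8 weeks of age with no treatment, and its age-matched control (CTR1, Ddx5flox/flox) had no treatment either. The inducible knockout (iCKO, Ddx5flox/flox Myh6MerCreMer) and its age-matched control (CTR2, Ddx5flox/flox) both received intraperitoneal tamoxifen, for which the treatment label has 5 days at 20 mg/kg/day. The series design instead speaks of collection after 7 days of injection, and no age is given for iCKO and CTR2. The Myh6 promoter drives Cre in cardiomyocytes, so other cells of the ventricle keep Ddx5. Neither control is labelled with Cre, so an effect of Cre itself cannot be told apart from the loss of Ddx5. Whether replicates came from separate animals is not labelled, and p-values then measure only the spread between these libraries, which may be technical.

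Library totals lay between 19682268 and 25871882 counts. Levels are given as CPM, counts scaled to a common library size with the TMM method. Ddx5 itself lay between 217.9 and 232.9 CPM in mCKO, against 396.6 to 636.2 CPM in CTR1. It lay between 192.0 and 218.9 CPM in iCKO, against 566.3 to 696.7 CPM in CTR2, and the groups overlapped in neither experiment. The lowest CTR1 value was that of replicate 3. All 12 cardiomyocyte markers examined were detected in every library, as the tissue label would have it.

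The cytosolic ribosome translates all mRNAs encoded in the nucleus, and each of its proteins is normally present in a single copy per particle, apart from the acidic proteins of the stalk. In mammals most of these proteins are encoded by single genes on different chromosomes, whose mRNAs are kept at similar levels. Their mRNAs begin with a C followed by a run of pyrimidines, the 5′ terminal oligopyrimidine (TOP) motif, through which the kinase mTORC1 and the RNA-binding protein Larp1 control their translation and stability. Some of the proteins have roles outside the ribosome, such as the binding of Mdm2 by Rpl5 and Rpl11, which holds back the degradation of p53.

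The start-site sequences are shown to set the letters around the listed starts beside the TOP motif described above. RefSeq promoter entries (build GRCm38.p6) were matched for 62 of the 82 genes. The 30 bases around the listed start, 15 on each side, are printed 5′ to 3′ on the gene's own strand for the 4 matched genes with the highest and then the 4 with the lowest iCKO log2 fold change. Capitals mark the longest run of C or T anywhere in the 30 bases, and where a gene has several entries, the one with the longest run is shown. A marked run need not begin with C or at the listed start, so it is not a call of the TOP motif.
Rps27l (chr9:66946071-66946100, + strand): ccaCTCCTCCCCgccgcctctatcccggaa
Rpl10 (chrX:74270801-74270830, + strand): gttgttacagtggaagataggccgCCTata
Rpl38 (chr11:114668565-114668594, + strand): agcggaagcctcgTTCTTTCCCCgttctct
Rps26 (chr10:128626492-128626521, - strand): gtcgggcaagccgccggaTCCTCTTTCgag
Rps13 (chr7:116334176-116334205, - strand): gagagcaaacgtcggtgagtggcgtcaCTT
Rps9 (chr7:3704026-3704055, + strand): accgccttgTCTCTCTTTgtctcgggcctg
Rplp2 (chr7:141447636-141447665, + strand): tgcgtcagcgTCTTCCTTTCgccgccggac
Rplp0 (chr5:115559452-115559481, + strand): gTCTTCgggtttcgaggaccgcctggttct
The longest run was 9, 3, 10 and 9 bases in Rps27l, Rpl10, Rpl38 and Rps26, and 3, 9, 10 and 5 bases in Rps13, Rps9, Rplp2 and Rplp0, so short and long runs occurred at both ends of the iCKO order.

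A run of at least 8 C or T bases stood in this window in 28 of the 62 matched ribosomal protein genes (45.2%), against 3760 of all 27025 genes with a promoter entry (13.9%). The median longest run was 7 bases in the ribosomal protein genes and 5 bases in all genes. Motifs were then searched on both strands of the whole 300-base entry, which reaches from 250 bases before the start to 50 after it. CCGGAAG, a core bound by ETS family factors, was found in 41.9% of the ribosomal protein genes and 9.93% of all genes. AAGATGG, a core bound by YY1, was found in 16.1% against 7.28%. The motifs can share the letters AAG and were counted separately. A match describes the letters in the window and not a bound site.

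Replicate 3 stood apart from replicates 1 and 2 in 3 of the 4 groups, and ribosomal protein genes took part in this more than most genes. Together the 82 genes took 1.70, 1.69 and 3.38% of the counts in mCKO replicates 1, 2 and 3, against 1.66, 1.63 and 2.79% in CTR1. They took 2.32, 2.56 and 4.38% in iCKO replicates 1, 2 and 3, against 1.55, 1.53 and 1.48% in CTR2. Replicate 3 was therefore the highest library of mCKO, CTR1 and iCKO and the lowest of CTR2. mCKO and CTR1 overlapped, whereas all 3 iCKO libraries lay above all 3 CTR2 libraries. Counting error is small beside these gaps, with an exact binomial 95% interval of 4.38 to 4.39% for iCKO replicate 3 and 1.48 to 1.49% for CTR2 replicate 3, an interval that covers counting error only.

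**Figure D1:**
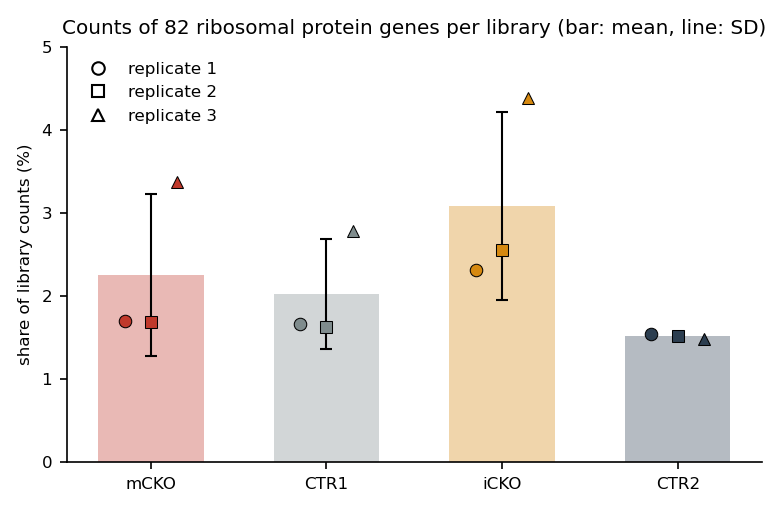
Share of library counts (%) taken by the 82 ribosomal protein genes in each of the 12 libraries, by group, with circles, squares and triangles for replicates 1, 2 and 3, bars at the group mean and lines for the SD. The triangle lies highest in mCKO (3.38%), CTR1 (2.79%) and iCKO (4.38%) but not in CTR2 (1.48%).

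Gene by gene, replicate 3 exceeded the mean of replicates 1 and 2 for all 81 genes that passed the filter on low counts in mCKO, in CTR1 and in iCKO, but for 11 of 81 in CTR2. The median log2 difference was 0.99 in mCKO and 0.74 in CTR1, and 0.97 in iCKO against -0.09 in CTR2. Replicates 1 and 2 differed by a median of -0.003, -0.04, 0.11 and -0.02 in mCKO, CTR1, iCKO and CTR2. Over all genes tested the median excess of replicate 3 was at most 0.01 in size in each group. Short transcripts shared the excess. Among other genes the median was 0.63 in mCKO, 0.41 in CTR1, 0.74 in iCKO and -0.14 in CTR2 below 500 bases of transcript, and -0.16, -0.13, -0.41 and 0.02 at 4000 bases and over. The median transcript of a ribosomal protein gene has 865.5 bases, and other genes of 500 to 1000 bases showed medians of 0.47, 0.34, 0.61 and -0.07, below those of the ribosomal protein genes in the 3 groups with an excess.

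**Figure D2:**
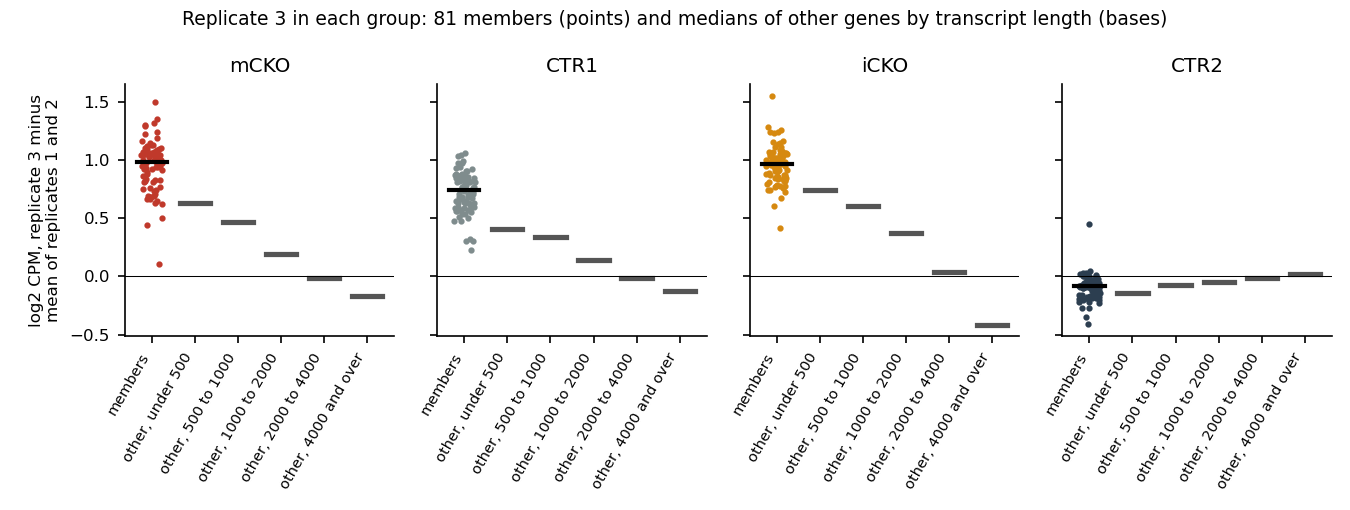
Log2 CPM of replicate 3 minus the mean of replicates 1 and 2 in mCKO, CTR1, iCKO and CTR2, with points for the 81 tested ribosomal protein genes and medians for other genes by transcript length in bases. The ribosomal protein genes sit above 0 in mCKO, CTR1 and iCKO, with medians of 0.99, 0.74 and 0.97, and around -0.09 in CTR2, and the other genes fall from short to long transcripts in the first 3 groups.

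The size of the replicate 3 excess differed between genes. Rpl39, a small protein of the polypeptide exit tunnel, had the highest excess in both constitutive groups, at 1.498 in mCKO and 1.06 in CTR1 on the log2 scale. Rps27a, which is made as a fusion with ubiquitin, had the highest in iCKO at 1.55, and was also the highest of CTR2 at 0.45. Rpl7l1, a paralog of Rpl7 that acts in assembly of the large subunit, had the lowest in 3 groups, at 0.11 in mCKO, 0.23 in CTR1 and 0.41 in iCKO. The mTORC1 and TOP regulators, a list of 29 genes, had medians of -0.12 in mCKO, -0.17 in CTR1, -0.04 in iCKO and -0.005 in CTR2. The 24 translation factors and other TOP mRNAs had medians of 0.35, 0.29, 0.425 and -0.10, with 19 of 24 positive in mCKO, in CTR1 and in iCKO. The 4 ribosomal proteins outside the rule had medians of 0.89, 0.69, 0.91 and -0.07. Markers of cell types also differed in replicate 3. The summed cardiomyocyte markers were lower in the constitutive experiment, at 78729 CPM in mCKO replicate 3 against 110830 and 113500 CPM in mCKO replicates 1 and 2, and at 92383 CPM in CTR1 replicate 3 against 124750 and 128260 CPM in CTR1 replicates 1 and 2, though 4 of the 12 markers were higher in replicate 3 of each group (medians -0.34 and -0.15). Fibroblast markers were higher in replicate 3 for 10 of 10 in mCKO and in CTR1 (medians 0.74 and 0.69), endothelial markers for 11 of 11 (0.66 and 0.79) and macrophage markers for 11 of 12 (0.61 and 0.435). Red blood cell markers were higher in replicate 3 for 0 of 5 in mCKO (-0.395) but 5 of 5 in CTR1 (0.64). Neutrophil markers were higher for 2 of 3 in mCKO (1.32) and 3 of 3 in CTR1 (1.44). In iCKO macrophage markers were higher in replicate 3 for 12 of 12 (0.91), red blood cell markers for 6 of 6 (1.975), neutrophil markers for 5 of 5 (1.71) and fibroblast markers for 1 of 10 (-0.11). In CTR2 the counts of these 4 lists were 0 of 12 (-0.35), 0 of 6 (-1.61), 0 of 5 (-0.96) and 8 of 10 (0.13). The part of transcript length or tissue make-up in the excess was not tested.

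In the constitutive knockout no ribosomal protein gene passed the test. Against CTR1, 0 of 81 genes were higher and 0 lower in mCKO at an adjusted p of 0.05 in edgeR's quasi-likelihood test with Benjamini-Hochberg adjustment, where 0% of all 13353 genes tested were called higher and 0% lower. At an unadjusted p of 0.05 the ribosomal protein genes also gave 0 calls, where 5.14% of all genes were higher and 3.58% lower. DESeq2 and limma-voom each called 0 of the family. Of all genes DESeq2 called 1.32% higher and 1% lower, and limma-voom 0%. The median log2 fold change was 0.09 over the 81 genes and 0.01 over all genes, with 76 positive and 5 negative values between -0.12 (Rps13) and 0.52 (Rps27l). The groups overlapped for all 81 genes, while 7.69% of all genes lay wholly higher and 7.3% wholly lower in mCKO.

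The labels number the replicates alike in the groups, and same-numbered mCKO and CTR1 libraries deviated together (r = 0.464, 0.532 and 0.823 over genes for numbers 1, 2 and 3), so the replicate number was also fitted as a block. Libraries 1 and 2 correlated as much across numbers (0.553 and 0.529), and with number 3 at -0.623 to -0.68, so the pairing in the data is of replicate 3 against the others. With that replicate block 2 genes were called higher and 0 lower, against 7.32% of all genes called higher and 6.45% lower. Rps27l, a paralog of Rps27 that p53 is known to induce, had 41.7, 44.2 and 90.2 CPM in mCKO replicates 1, 2 and 3, against 31.1, 33.1 and 58.7 CPM in CTR1. It was higher in mCKO within each number, though the groups overlapped. The log2 fold change of Rps27l was 0.49 ± 0.07 (SE, edgeR with the block, adjusted p = 0.0016), against 0.52 ± 0.38 (adjusted p = 0.84) without it. Rps12, a protein of the small-subunit beak, had 142.4, 138.0 and 271.6 CPM in mCKO, against 127.1, 118.1 and 210.6 CPM in CTR1. It too was higher within each number, with a log2 fold change of 0.25 ± 0.07 (SE, edgeR with the block, adjusted p = 0.028), against 0.28 ± 0.34 (adjusted p = 0.95) without it. Without replicate 3 of both groups Rps27l was the 1 gene called, at 0.42 (edgeR, adjusted p = 0.019). Of all genes 3.85% were called higher there and 3.94% lower. With the block as well as this omission the adjusted p of Rps27l was 0.060 (edgeR).

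Within numbers, the constitutive difference of the family as a whole rested on replicate 3. The median log2 difference of mCKO minus CTR1 over the 81 genes was -0.03 in replicate 1, 0.00 in replicate 2 and 0.20 in replicate 3, where 79 of 81 values were positive. The fitted median changed direction with single libraries, at 0.24, 0.24 and -0.31 without mCKO replicates 1, 2 and 3, and at -0.03, -0.04 and 0.38 without CTR1 replicates 1, 2 and 3. The mean share of counts was 1.11 times that of CTR1 in mCKO, and 1.03 times over replicates 1 and 2 alone. The summed macrophage markers were 908.5, 778.1 and 1422.1 CPM in mCKO, against 588.5, 631.5 and 876.2 CPM in CTR1, and each mCKO value exceeded the same-numbered CTR1 value. Their part in the difference was not tested. In RNA of whole tissue, a change in the number of cells of a type and a change in RNA per cell cannot be told apart.

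In the inducible knockout the mRNAs of most ribosomal proteins rose. Against CTR2, 60 of the 81 tested genes were higher in iCKO and 0 lower (edgeR, adjusted p under 0.05), where 25.2% of all 13548 genes tested were called higher and 19.5% lower. All 81 log2 fold changes were positive, with a median of 0.90 against 0.03 over all genes, and they lay between 0.16 (Rps13) and 1.60 (Rps27a). The groups did not overlap for 72 genes, all higher in iCKO, while 31.9% of all genes lay wholly higher and 27% wholly lower. By subunit, 39 of 49 large-subunit genes rose (median 0.88) and 21 of 32 small-subunit genes (median 0.91).

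**Figure D3:**
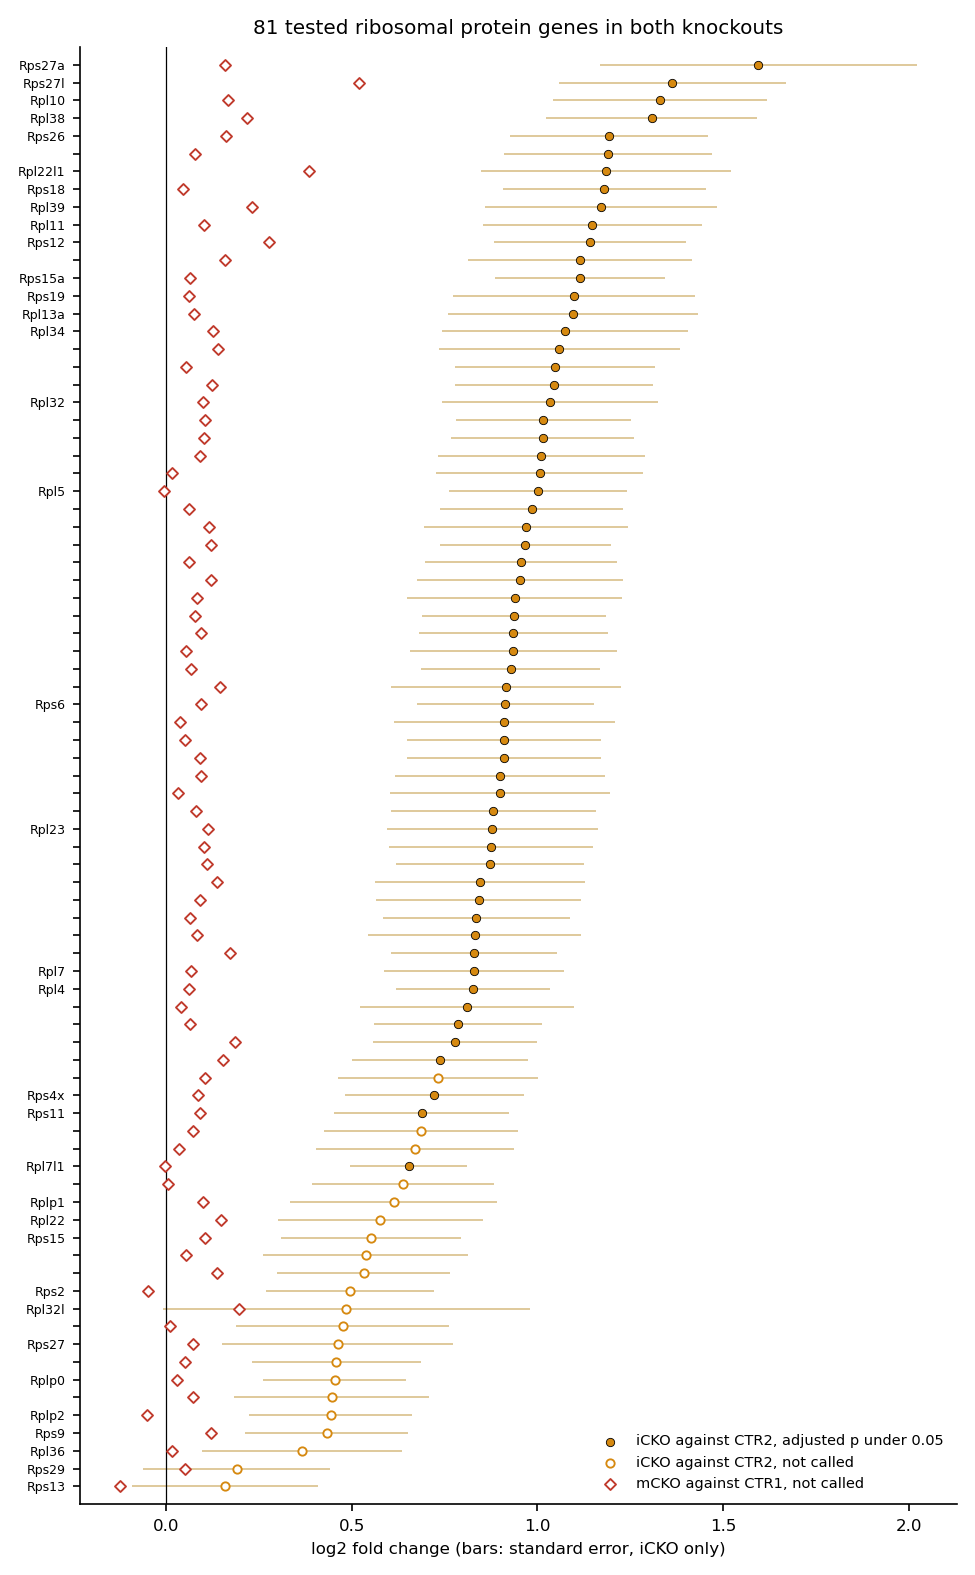
Log2 fold change of each of the 81 tested ribosomal protein genes, with filled circles for iCKO against CTR2 at an adjusted p under 0.05, open circles where not called, open diamonds for mCKO against CTR1, and bars for the standard error in iCKO. Symbols are printed for the genes named by rule. The iCKO values run between 0.16 and 1.60, and the mCKO values lie around their median of 0.09.

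The number called and the size of the change depended on single libraries. Leaving out 1 CTR2 library lowered the count to 21 (replicate 1), 25 (replicate 2) or 14 (replicate 3) of 81, where 18.7, 22.2 and 17.5% of all genes were called higher. Without CTR2 replicate 3 the family was thus called about as often as all genes. Leaving out iCKO replicate 3 gave 60 calls, beside 25.7% of all genes called higher, but lowered the median log2 fold change to 0.46. Without replicate 3 of both groups 43 genes were called, all of them among the 60, at a median of 0.43 and beside 19.6% of all genes. Same-numbered libraries gave medians of 0.44, 0.50 and 1.52 for replicates 1, 2 and 3, with 72, 76 and 81 of 81 values positive. In the summed TMM-scaled level, iCKO replicates 1 and 2 averaged 1.34 times CTR2 replicates 1 and 2, and iCKO replicate 3 was 2.68 times CTR2 replicate 3.

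A set of 13 genes, singled out after their values were seen, was called in every one of these omissions, among them Rpl5, Rpl6, Rpl6l, Rpl10, Rpl12, Rpl15, Rpl38, Rps12, Rps15a, Rps18, Rps26 and Rps27l. Rps15a had the smallest adjusted p of the family. This small-subunit protein had 252.6, 261.0 and 437.9 CPM in iCKO, against 153.8, 151.2 and 134.4 CPM in CTR2. All iCKO libraries were above all CTR2 libraries, with a log2 fold change of 1.11 ± 0.23 (SE, edgeR, adjusted p = 0.0051). Rpl10, which joins the large subunit late and completes the peptidyl transferase centre, had 321.7, 356.4 and 700.2 CPM in iCKO, against 180.3, 194.0 and 174.1 CPM in CTR2. It rose by 1.33 ± 0.29 on the log2 scale (SE, edgeR, adjusted p = 0.0063), and by 0.81 (adjusted p = 0.0072) without replicate 3 of both groups. Rpl10 has 8 processed pseudogenes of at least 95% identity, and reads from these cannot be separated from its own here.

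Rpl38, a large-subunit protein known for its effect on Hox mRNA translation in mouse embryos, had 100.5, 109.2 and 217.8 CPM in iCKO, against 57.8, 57.1 and 57.7 CPM in CTR2. The CTR2 values were nearly equal, and even the lowest iCKO library lay well above them. Rpl38 rose by 1.31 ± 0.28 on the log2 scale (SE, edgeR, adjusted p = 0.0065). Rps26, a protein at the mRNA exit channel, had 184.8, 195.8 and 372.0 CPM in iCKO, against 112.3, 108.3 and 108.3 CPM in CTR2, with a log2 fold change of 1.19 ± 0.27 (SE, edgeR, adjusted p = 0.0073). Rps12 had 170.6, 195.3 and 344.9 CPM in iCKO, against 107.1, 113.5 and 101.6 CPM in CTR2, with a log2 fold change of 1.14 ± 0.26 (SE, edgeR, adjusted p = 0.0079). For both genes replicates 1 and 2 of iCKO lay close together and replicate 3 far above them. Rps18, a protein of the small-subunit head, had 344.9, 371.8 and 711.9 CPM in iCKO, against 205.5, 220.0 and 204.7 CPM in CTR2, and rose by 1.18 ± 0.27 on the log2 scale (SE, edgeR, adjusted p = 0.0086).

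Rps27a had the largest log2 fold change, 1.60 ± 0.43 (SE, edgeR, adjusted p = 0.016). It had 147.0, 206.2 and 510.1 CPM in iCKO, against 95.2, 74.96 and 115.5 CPM in CTR2. Its call was lost without CTR2 replicate 1 (adjusted p = 0.054) or CTR2 replicate 2 (adjusted p = 0.064), and its exons overlap those of Clhc1 on the other strand.

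Among the 21 genes that did not pass in iCKO were all 3 proteins of the stalk, which recruits the translation factors that hydrolyse GTP, with log2 fold changes of 0.45 (Rplp0), 0.61 (Rplp1) and 0.44 (Rplp2). Rplp0 had 892.2, 922.3 and 1379 CPM in iCKO, against 745.0, 791.9 and 793.1 CPM in CTR2 (edgeR, adjusted p = 0.086). Rplp1 had 396.1, 411.5 and 808.8 CPM in iCKO, against 400.4, 323.8 and 332.5 CPM in CTR2, so that the groups overlapped. Rplp2 had 170.1, 176.3 and 289.6 CPM in iCKO, against 165.2, 151.3 and 151.3 CPM in CTR2. For Rplp0 and Rplp2 the groups did not overlap, but replicates 1 and 2 of iCKO lay close above CTR2.

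Rps13, a protein of the small-subunit body, was the gene with the smallest change. It had 149.5, 155.1 and 281.2 CPM in iCKO, against 176.2, 191.0 and 157.5 CPM in CTR2, so that 2 of its iCKO libraries lay below all 3 CTR2 libraries. Its log2 fold change was 0.16 ± 0.25 (SE, edgeR, adjusted p = 0.63). Rps29, a zinc-binding protein of the small-subunit head, had 203.7, 205.4 and 366.6 CPM in iCKO, against 265.2, 207.0 and 207.7 CPM in CTR2. Its log2 fold change was 0.19 ± 0.25 (SE, edgeR, adjusted p = 0.56). Rpl36, of the large subunit, had 142.6, 139.4 and 279.1 CPM in iCKO, against 157.1, 145.0 and 133.2 CPM in CTR2, with a log2 fold change of 0.37 ± 0.27 (SE, edgeR, adjusted p = 0.30). In all 3 genes iCKO replicate 3 was the only iCKO library above every CTR2 library.

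Counts of called genes are also given for groups listed by place or role. All 4 genes whose proteins bind Mdm2 rose, at a median log2 fold change of 0.94. Among them Rpl5 had 518.4, 548.9 and 955.3 CPM in iCKO, against 335.0, 343.5 and 332.1 CPM in CTR2 (1.001 ± 0.24 SE, edgeR, adjusted p = 0.010), and Rpl11 reached 1.149 and Rpl23 0.88. Around the polypeptide exit tunnel 8 of 10 genes rose (median 0.86), including Rpl4 at 0.83 and Rpl39 at 1.17, while Rpl22 at 0.58 did not pass. At the mRNA entry and decoding region of the small subunit 2 of 6 rose (median 0.62), and Rps2 at 0.50, Rps15 at 0.55 and Rps9 at 0.43 did not pass. Of 19 genes mutated in human Diamond-Blackfan anaemia 14 rose (median 0.92). Rps19, the gene most often mutated in that disease, had 129.0, 142.9 and 320.9 CPM in iCKO, against 96.6, 88.0 and 92.3 CPM in CTR2, with a log2 fold change of 1.10 ± 0.33 (SE, edgeR, adjusted p = 0.025). These counts stand beside 60 of 81 for the whole family and 25.2% of all genes called higher, and 2 of 6 is near the latter. No difference between the groups of genes was tested.

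Rps6, the small-subunit protein phosphorylated by the S6 kinases, had 365.9, 396.7 and 667.9 CPM in iCKO, against 236.9, 278.9 and 243.2 CPM in CTR2. The gene rose by 0.91 ± 0.24 on the log2 scale (SE, edgeR, adjusted p = 0.015), and 11 near-identical pseudogenes are listed for it. Rpl13a, also a part of the interferon-gamma-activated translational silencing complex of human myeloid cells, had 394.0, 405.0 and 973.3 CPM in iCKO, against 293.7, 269.3 and 266.0 CPM in CTR2 (1.10 ± 0.34 SE, edgeR, adjusted p = 0.028). Over the family, 42 of 55 genes with no near-identical processed pseudogene rose (median 0.91), and 18 of 26 genes with at least 1 (median 0.83). Both counts stand beside 25.2% of all genes called higher. The rise was therefore also measured in genes for which the search counted no near-identical copy. A copy was counted only if it covered most of the principal transcript. Where the listed transcript is long, as for Rps15a (5179 bases) and Rps20 (3706 bases), a copy of a shorter mRNA could not be counted. For such genes the search cannot tell whether near-identical copies exist.

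To read changes in proportion within the family, the log2 CPM of each gene was set against the median of the 81 genes in the same library, which removes a shift shared by all. In mCKO against CTR1 the proportions hardly moved, with 80 of 81 differences within 0.25 and an SD of 0.08 over genes. In iCKO against CTR2 56 of 81 were within 0.25, the SD was 0.26, and 14 of 81 genes lay wholly higher and 23 wholly lower than in CTR2. Of all genes, set against the median of all genes in the same library, 30.6% lay wholly higher and 28.3% wholly lower, so separation was no more frequent in the family. Rps13 had relative levels of -0.71, -0.75 and -0.82 in iCKO, against -0.05, 0.01 and -0.04 in CTR2, a difference of -0.73. Rps29 differed by -0.69 and Rpl36 by -0.54, and neither overlapped between the groups. At the other end Rps27l differed by 0.45, Rpl10 by 0.41 and Rpl38 by 0.38, again without overlap, while Rps27a differed by 0.57 with overlap. Rpl10 had relative levels of 0.39, 0.45 and 0.50 in iCKO, against -0.01, 0.03 and 0.10 in CTR2. Replicate 3 lay close to replicates 1 and 2 of iCKO for Rpl10 and Rps13 but not for every gene, as Rps27a with -0.73, -0.34 and 0.04 and Rpl7l1 with -1.83, -1.86 and -2.41 show.

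**Figure D4:**
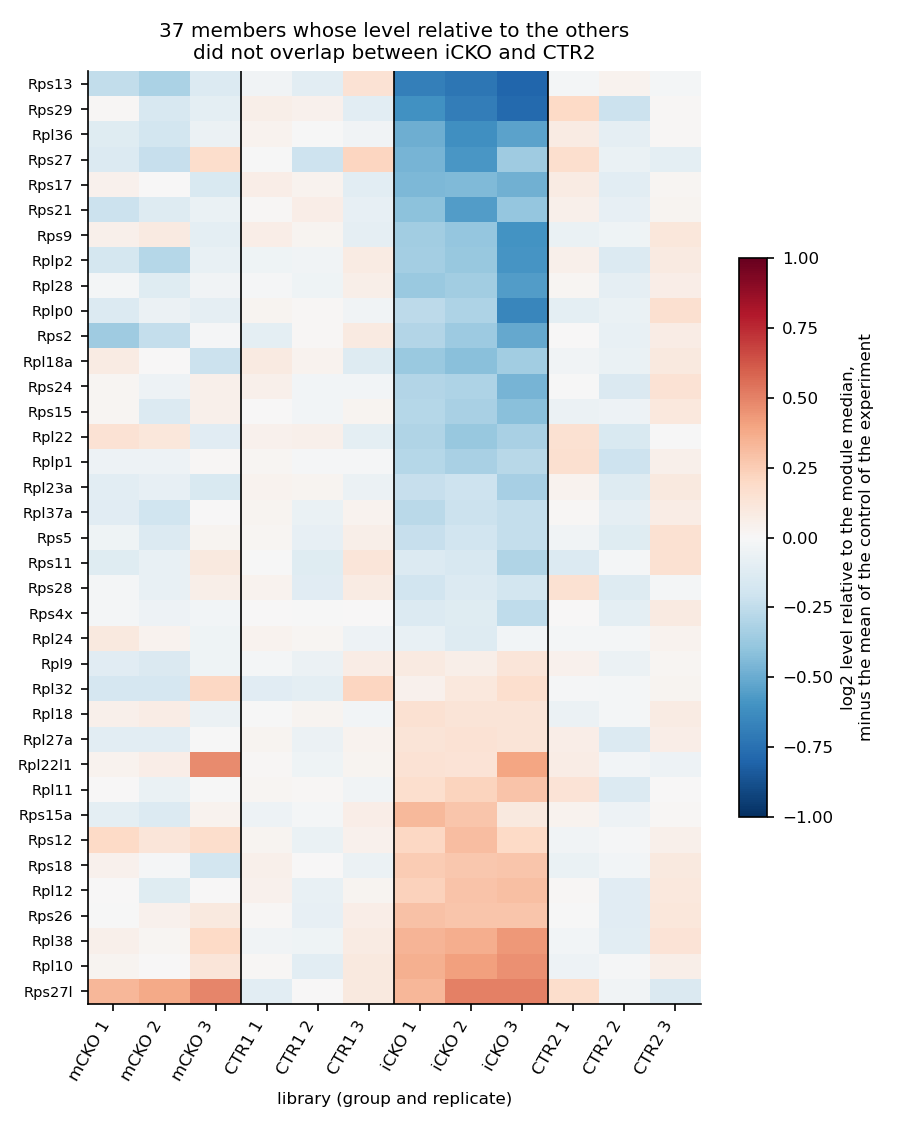
Log2 level relative to the median of the family in the same library, minus the control mean of the experiment, for the 37 genes whose relative level did not overlap between iCKO and CTR2. The genes were chosen for this separation, 14 higher and 23 lower in iCKO, so their sign in the iCKO columns is given by the choice. Among them the lowest difference is that of Rps13 (-0.73) and the highest that of Rps27l (0.45).

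Relative levels in mCKO are given beside these. Rps13 had the lowest difference in relative level in mCKO too, at -0.24, with -0.05, -0.12 and 0.06 in mCKO, against 0.16, 0.10 and 0.34 in CTR1. Rpl36 differed by -0.12 and Rplp2 by -0.18 in mCKO, and Rps27l by 0.40, Rpl22l1 by 0.19 and Rps12 by 0.17, all without overlap. In all, 4 of 81 genes lay wholly higher and 7 wholly lower in mCKO, shares near those of all genes read the same way (7.23% higher and 8.07% lower). The ratio of summed large-subunit to small-subunit counts was 1.42, 1.43 and 1.41 in iCKO, against 1.345, 1.369 and 1.361 in CTR2, and 1.40, 1.39 and 1.29 in mCKO, against 1.37, 1.37 and 1.30 in CTR1. The ratio was higher in every iCKO library than in every CTR2 library, and in the constitutive experiment it was lower in both replicate 3 libraries.

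The products of paralogs can stand in for the usual protein in some tissues. Of 6 listed paralogs 3 were tested in iCKO, and these, Rps27l, Rpl22l1 and Rpl7l1, rose, as did 4 of 6 parents. Of all genes 25.2% were called higher there. Rps27l had 56.3, 67.7 and 129.0 CPM in iCKO, against 37.7, 33.8 and 26.9 CPM in CTR2, a log2 fold change of 1.36 ± 0.31 (SE, edgeR, adjusted p = 0.0075). Its parent Rps27 had 132.8, 131.0 and 290.2 CPM in iCKO, against 153.3, 135.5 and 113.4 CPM in CTR2, and did not pass (0.46 ± 0.31 SE, adjusted p = 0.26). Rps27l was thus higher in every iCKO library than in every CTR2 library, whereas for Rps27 only iCKO replicate 3 lay above them all. Rpl22l1, which in mouse can replace Rpl22, had 18.3, 19.3 and 44.2 CPM in iCKO, against 12.9, 12.5 and 10.51 CPM in CTR2 (1.18 ± 0.34 SE, edgeR, adjusted p = 0.021). Rpl22 had 143.9, 145.3 and 287.2 CPM in iCKO, against 146.2, 123.3 and 117.0 CPM in CTR2, and did not pass (edgeR, adjusted p = 0.12). Rpl22l1 has 1 near-identical pseudogene, and its exons overlap Gm33051 on the other strand.

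Rpl7l1 had 68.5, 72.1 and 93.7 CPM in iCKO, against 49.5, 51.3 and 48.0 CPM in CTR2, with a log2 fold change of 0.65 ± 0.16 (SE, edgeR, adjusted p = 0.010). It was called except without CTR2 replicate 3, where its adjusted p was 0.053. Rpl7 rose by 0.83 ± 0.24 (adjusted p = 0.024), and had 504.2, 549.5 and 952.8 CPM in iCKO, against 372.4, 393.6 and 363.2 CPM in CTR2. Rps4x, the X-linked parent of the family of Rps4 genes, rose by 0.72 (edgeR, adjusted p = 0.038). Rpl39l, a paralog of Rpl39 known from the testis, was left out by the filter, with 2, 5 and 17 counts in iCKO, against 2, 1 and 3 counts in CTR2, and 3, 1 and 6 counts in mCKO, against 0, 2 and 4 counts in CTR1. Rpl32l was also scarce, at 0.47, 0.56 and 1.27 CPM in iCKO, against 0.76, 0.42 and 0.46 CPM in CTR2, and did not pass (0.49 ± 0.49 SE, edgeR, adjusted p = 0.45). Whether a paralog changed more than its parent was not tested.

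**Figure D5:**
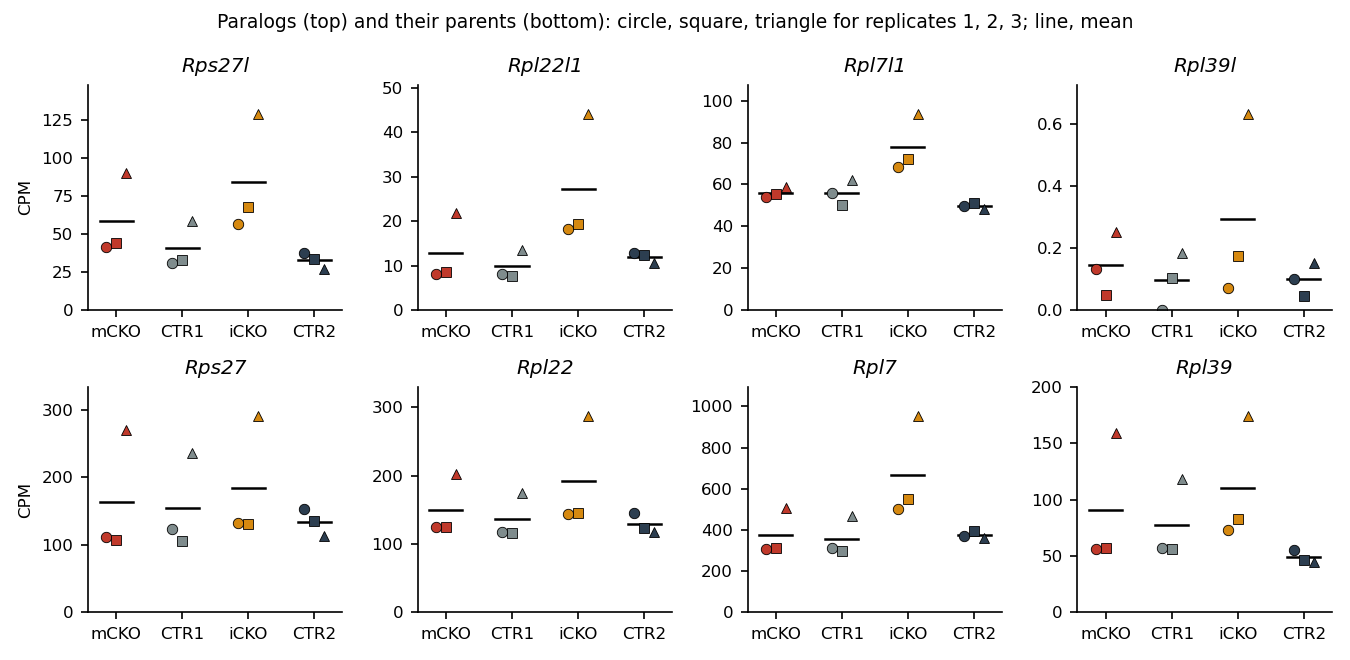
CPM of paralogs (top) and their parents (bottom) in mCKO, CTR1, iCKO and CTR2, with circles, squares and triangles for replicates 1, 2 and 3 and a line at the mean. Rps27l reaches 56.3 to 129.0 CPM in iCKO against 26.9 to 37.7 CPM in CTR2 with no overlap, while its parent Rps27 overlaps between iCKO and CTR2.

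Per length, levels differed widely within the family although the particle holds equal numbers of most of its proteins. Each level was divided by the length of 1 principal transcript, which need not be the mRNA present in the heart. A long listed transcript, as for Rps15a (5179 bases) and Rps20 (3706 bases), lowers the value per kilobase. Averaged over the 4 groups, Rplp1, Rps29 and Rps15 were the most abundant in CPM per kilobase of transcript. Rplp1, Rps15 and Rps29 stood at 1080, 1054 and 663 in iCKO, against 706, 719 and 581 in CTR2, and at 1572, 989.4 and 1253 in mCKO, against 1467, 919 and 1210 in CTR1. In iCKO alone Rpl41, which encodes the smallest ribosomal protein and is named for its rank after its values were seen, stood at 1041, above Rps29. Rpl39l, Rpl32l and Rpl7l1 were the least abundant, at 0.37, 1.93 and 29.96 CPM per kilobase in iCKO, against 0.12, 1.37 and 19.1 in CTR2. The tables were normalized separately, so these levels are not compared between the experiments.

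Transcript length was also set beside the iCKO changes. Other genes had median log2 fold changes in iCKO of -0.11 below 500 bases, 0.06 at 500 to 1000, 0.15 at 1000 to 2000, 0.07 at 2000 to 4000 and -0.08 at 4000 and over. The ribosomal protein genes had 0.49, 0.93, 0.86 and 0.91 in the first 4 of these classes (11, 42, 22 and 5 genes), above the other genes of each class. The class below 500 bases stood lowest, with 27.3% of its genes called higher, against 83.3, 77.3 and 80% in the next 3 classes and 21.7, 25, 30.4 and 27.3% of other genes in the 4 classes. Over the 81 genes, Spearman's correlation of log2 fold change with transcript length was 0.06 in iCKO and -0.17 in mCKO, given as a description over genes that share libraries.

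The change in iCKO was larger than in mCKO for all 81 genes, but the test of the difference itself called few of them. In 1 fit of all 12 libraries, with the log2 fold change in mCKO minus that in iCKO as the contrast, 0 genes were higher and 1 was lower (edgeR, adjusted p under 0.05), where 11% of all 13871 genes were called higher and 9.88% lower. The median difference was -0.78, against 0.03 over all genes, and 7 of the 81 passed an unadjusted p of 0.05, all lower. The gene called was Rpl7l1, with 53.8, 55.2 and 58.8 CPM in mCKO, against 56.1, 50.1 and 62.1 CPM in CTR1, beside the iCKO values above. The log2 fold change of Rpl7l1 was -0.003 ± 0.11 in mCKO and 0.65 ± 0.16 in iCKO, and the difference was -0.63 ± 0.21 (SE, edgeR, adjusted p = 0.049). The call was lost with limma-voom (adjusted p = 0.057), with TMM computed without the family (adjusted p = 0.0502) and in 8 of the 12 fits that left out 1 library.

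The number called in this contrast depended on the libraries fitted and was highest without replicate 3 of all groups. With the replicate block 11 genes were lower, against 14.8% of all genes called higher and 13.3% lower. That block also covers iCKO and CTR2, whose numbers do not pair the libraries. Without mCKO replicate 3 there were 20 lower (11.2% of all genes), and without the replicate 3 libraries of all groups there were 45 lower (13% of all genes), at a median of -0.44. Without CTR1 replicate 3 or without iCKO replicate 3 there were 0 lower, beside 8.93 and 9.11% of all genes. The main fit called only 1, and 0 were also lower without mCKO replicate 1 or CTR2 replicate 1, among others. These zeros therefore do not single out replicate 3. Rps27a had the largest difference between models, -1.42, and Rps29 the smallest, -0.12.

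Other genes of the translation machinery were read from lists of 24 translation factors and TOP mRNAs and 29 regulators of mTORC1 and TOP mRNAs. In mCKO 0 genes of either list were called by edgeR without the block, and at an unadjusted p of 0.05 there were 0 higher and 1 lower of the 24 and 1 higher and 1 lower of the 29. In iCKO 11 of the 24 rose and 3 fell (median 0.405), beside 25.2% of all genes higher and 19.5% lower. Eef1a1, the elongation factor that delivers aminoacyl-tRNA, rose by 1.58 ± 0.16 (SE, edgeR, adjusted p = 1.9e-04), and Eif4a1, the helicase of the cap-binding complex, by 1.42 ± 0.23 (adjusted p = 0.0017). Eef1g, a subunit of the exchange factor for eEF1A, rose by 1.21 ± 0.20 (SE, edgeR, adjusted p = 0.0016). Of the 29 regulators 1 rose and 9 fell (median -0.38), beside the same shares of all genes. Sesn2, a stress-induced inhibitor of mTORC1 that senses leucine, rose by 1.46 ± 0.27 (SE, edgeR, adjusted p = 0.0028). Its relative Sesn1 fell by 2.18 on the log2 scale (SE 0.29, edgeR, adjusted p = 6.2e-04). Tsc2, which with Tsc1 inhibits the mTORC1 activator Rheb, fell by 0.73, and Flcn, a regulator of Rag GTPases, fell by 0.92. Among ribosomal proteins outside the rule Rpl36al rose by 1.23 ± 0.28 and Rack1 by 0.87 ± 0.20 (SE, edgeR, adjusted p = 0.0085 and 0.0086).

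Markers of cell types moved in the same libraries. The counts called here stand beside 25.2% of all genes called higher in iCKO and 19.5% lower. The 12 macrophage markers were all detected in every library, and 10 of them were higher in iCKO, with summed levels of 1065.5, 1347.7 and 2166.3 CPM in iCKO, against 512.1, 601.0 and 436.8 CPM in CTR2. Of the 12 cardiomyocyte markers 9 were lower, with sums of 68771, 58006 and 59613 CPM in iCKO, against 125570, 110980 and 119560 CPM in CTR2. Replicate 3 of iCKO was the highest of its group for macrophage markers, as it was for the ribosomal protein genes, and the middle one for cardiomyocyte markers. All 6 red blood cell markers tested were lower in iCKO (median -2.33), with sums of 60.1, 64.0 and 260.9 CPM in iCKO, against 417.2, 1172.8 and 257.6 CPM in CTR2. Of 5 neutrophil markers tested 3 were higher (median 1.83), with sums of 28.2, 29.0 and 71.8 CPM in iCKO, against 6.07, 16.3 and 5.46 CPM in CTR2. Both sums were highest in replicate 3 within iCKO. Of 5 atrial markers tested 2 were higher and 1 was lower. Nppa and Myl4 had log2 fold changes of 4.53 and 2.94, and Stard10 had -0.82. Of 10 fibroblast markers 5 were higher and 2 lower, and of 11 endothelial markers 7 were lower. Of 12 lymphocyte markers 3 were tested and 2 were higher. Ptprc rose by 1.86 ± 0.18 and Cd79b by 2.15 ± 0.66 (SE, edgeR, adjusted p = 1.9e-04 and 0.028). The summed list had 30.2, 39.6 and 30.5 CPM in iCKO, against 10.4, 8.85 and 10.7 CPM in CTR2. Other lymphocyte markers were near the limit of detection, with Cd3e, Cd3d, Cd3g, Cd8a and Ms4a1 among those at 0 in at least 1 library of iCKO or CTR2. The part of these cell types in the rise of the ribosomal protein genes was not tested.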

How the data were processed

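The 12 left ventricle libraries were placed in 4 groups of 3 and numbered by their sample titles. Per the labels' protocols, they were TruSeq stranded mRNA libraries of Trizol-extracted total RNA. HISAT2, DESeq and the build GRCm38 are named, per the submitters' processing notes. No version, annotation, counter or strand setting is given in the sources used here. As 1 table per experiment, the authors deposited raw gene counts.

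From the deposited counts, CPM with TMM scaling and log2 CPM with a prior count of 2 were derived. After filterByExpr with a minimum count of 10 and a minimum total of 15, genes were tested over each whole table with edgeR 4.0.16 quasi-likelihood fits in R 4.3.3, with two-sided Benjamini-Hochberg adjusted p-values called at 0.05 and no covariates. DESeq2 1.42.0, limma-voom (limma 3.58.1), other scalings, no filter, the replicate block and omitted libraries were alternatives. The fits were also run on simulated counts with known changes. Those counts held no shift of replicate 3 shared over genes, so they cannot show how the fits behave under such a shift. A count of 0 allows up to 3 counts, 0.106 to 0.157 CPM. The deviations of every same-numbered pair from their group means correlated above 0.1 over genes for mCKO with CTR1. This did not hold for iCKO with CTR2 (0.058, -0.09 and -0.161), and block results that include these libraries are given as an alternative. What a number marks is not labelled. Within each group, every pair of libraries differed by more than sampling noise.

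Near-identical pseudogenes were processed pseudogene transcripts of GENCODE M21 matching at least 95% over at least 70% of the principal transcript. The members and gene lists were chosen with earlier results of these data known. Genes were named by a rule on lists, calls, fold changes, replicate 3 excess, relative level and abundance, which gave 36 members. Those named beyond it are Rpl6, Rpl6l, Rpl12, Rpl15 and Rpl41. Some genes are not reported here.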

Additional observations from a re-analysis of the deposited data

Results flagged for a closer look

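Rpl7l1 stood out because it was the 1 gene of the family to pass the test of the difference between the models. Rpl7l1 did not have a large difference within the family, whose median difference was -0.78. Its log2 fold change in mCKO minus that in iCKO was -0.63 ± 0.21 (SE, edgeR quasi-likelihood test, adjusted p = 0.049), and leaving out 1 library gave adjusted p-values between 0.023 and 0.11. Its excess of replicate 3 was the lowest of the 81 genes, at 0.11 in mCKO, 0.23 in CTR1 and 0.41 in iCKO on the log2 scale.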

How the results depend on the processing

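In mCKO the count called was 2 with the replicate block, 1 without replicate 3 of both groups, and 0 in every fit that left out 1 library (0 to 0), and the family median then lay between -0.31 and 0.38. Of all genes 7.32% were called higher with the block and 3.85% without replicate 3 of both groups. In iCKO leaving out 1 library gave 14 to 67 calls and medians of 0.46 to 1.09, beside 17.5 to 25.7% of all genes called higher. Omitting replicate 3 of both groups gave a median of 0.43. Adding the replicate block to this omission, an alternative chosen after seeing the data, gave 39 calls at a median of 0.43, beside 18.8% of all genes higher. With the block alone 55 genes were called in iCKO, beside 22.5% of all genes higher. The numbers do not pair the libraries there. Scaling by library size alone moved the iCKO median of all genes to 0.24, and 33.9% of all genes were then called higher and 13.5% lower, beside 25.2% and 19.5%. The same scaling moved the median of all genes to -0.14 in the difference between models, with 7.95% called higher and 15.5% lower, beside 11% and 9.88%. In the difference between models the count was 4 with library sizes alone, 0 with TMM computed without the ribosomal protein genes, 3 with DESeq2, 0 with limma-voom, 11 with the replicate block and 45 without replicate 3. Of all genes these fits called 15.5, 9.86, 13.7, 8.82, 13.3 and 13% lower, in that order. Leaving out 1 library gave 0 to 20 there, at medians of -1.15 to -0.345, beside 6.47 to 11.5% of all genes called lower. The cause of these changes was not tested. With TMM-scaled library sizes the ratio of mean summed levels was 1.06 in mCKO against CTR1 and 1.77 in iCKO against CTR2, beside 1.11 and 2.03. A prior count of 0.5 gave 10 and 37 genes with separate relative levels, beside 11 and 37. No family median in iCKO changed sign in any setting.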
